A study of Mus musculus with 10 samples.

Results

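ATAC-seq, which reads out open chromatin from the places where a transposase can cut and tag DNA, was examined at the genes of 2 T-box transcription factors, Tbx21 (which encodes T-bet) and Eomes (which encodes eomesodermin). Their regions were chosen by position alone, as every accessible region that overlapped the gene body or lay within 50 kb of the annotated transcription start. Of 94823 regions in all, 46 met this rule, 36 at Tbx21 (ENSMUSG00000001444.2, chr11:97098071-97115331, minus strand) and 10 at Eomes (ENSMUSG00000032446.14, chr9:118478212-118486132, plus strand), with GRCm38 (mm10) coordinates. In the window of Tbx21, 11 regions lay in the neighbouring gene Tbkbp1, and in that of Eomes 3 lay in Golga4. Regions are named here by the distance of their centre from the start of the gene, with a minus sign for the upstream side.

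T-box factors bind DNA through a conserved domain of the same name. T-bet drives the type 1 programme of lymphocytes, in which cells make interferon-gamma, and it is a defining factor of iNKT1 cells, the interferon-producing subset of invariant natural killer T cells. Eomesodermin is a close relative that acts beside T-bet in NK cells and CD8 T cells and supports cytotoxic and memory genes.

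The cells were iNKT1 and iNKT2 cells sorted from the thymus of young adult BALB/c mice and of SKG mice, which are on the BALB/c background and carry a hypomorphic mutation of Zap70, a kinase of the T cell receptor pathway. By the study's methods iNKT1 cells were gated as CD27+ CD122+ and iNKT2 cells as CD27+ CD122-, so that a subset here is a surface gate and not a direct gate on T-bet. CD122 is encoded by Il2rb, which is among the target and effector genes described below. How far the gate also sorted cells by Tbx21 was not tested. There were 2 libraries of BALB/c iNKT1, 2 of SKG iNKT1, 3 of BALB/c iNKT2 and 3 of SKG iNKT2 cells. The values were whole numbers with unequal totals and were read as raw insertion counts, although their table is named as normalized. That name leaves a doubt that bears on every insertion count and level here. Insertions inside the regions totalled 14988590 to 36342635 per library, and the median region held 40 to 120. Levels are given as CPM, the usual scale of counts relative to the library total, here after TMM scaling. In sorted populations, a lower level can come from fewer cells with the region open or from fewer insertions per cell, and these cannot be told apart.

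The DNA of 6 stretches shows what the regions with the leading values contain. Capitals mark matches, on either strand, of 7 short strings that stand for factor families: T-box GGTGTGA, Runx TGTGGT, ETS AGGAAG, NFAT TGGAAA, Egr GTGGGNG, E protein CAGCTG and Tcf CTTTGA. The Tbx21 stretches are printed on the minus strand, in the direction of the gene, and the Eomes stretches on the plus strand. The intron region at +11.1 kb (chr11:97104120-97104419 for the printed bases) had the smallest p between the subsets. The stretch at the start (chr11:97115332-97115514) is the part of the start region upstream of the first transcribed base. The region at -11.8 kb (chr11:97127012-97127311) had the highest mean CPM at Tbx21, not divided by its width. The region at -15.7 kb (chr11:97130862-97131161), added after its values and matches were seen, was the one at Tbx21 with the T-box string. At Eomes, the coding exon region at +1.0 kb (chr9:118479080-118479379) had the smallest p in 3 comparisons, and the region downstream at +11.5 kb (chr9:118489576-118489875) had the highest mean CPM, likewise not divided by width.
Tbx21 +11.1 kb: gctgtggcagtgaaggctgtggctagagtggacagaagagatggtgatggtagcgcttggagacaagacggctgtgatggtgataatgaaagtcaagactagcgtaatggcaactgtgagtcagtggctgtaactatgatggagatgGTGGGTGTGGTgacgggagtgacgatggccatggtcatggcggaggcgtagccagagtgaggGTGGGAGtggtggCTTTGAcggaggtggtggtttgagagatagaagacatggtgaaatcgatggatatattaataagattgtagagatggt
Tbx21 start, upstream side: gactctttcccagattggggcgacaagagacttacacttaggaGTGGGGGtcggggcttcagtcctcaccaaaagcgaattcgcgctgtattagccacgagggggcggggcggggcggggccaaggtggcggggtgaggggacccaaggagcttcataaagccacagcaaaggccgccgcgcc
Tbx21 -11.8 kb: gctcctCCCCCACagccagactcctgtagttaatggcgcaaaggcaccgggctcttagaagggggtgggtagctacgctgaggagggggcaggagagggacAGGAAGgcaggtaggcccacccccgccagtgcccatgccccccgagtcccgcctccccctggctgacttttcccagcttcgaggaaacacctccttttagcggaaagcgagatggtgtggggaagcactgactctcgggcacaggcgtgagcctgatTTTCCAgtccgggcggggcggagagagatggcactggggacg
Tbx21 -15.7 kb: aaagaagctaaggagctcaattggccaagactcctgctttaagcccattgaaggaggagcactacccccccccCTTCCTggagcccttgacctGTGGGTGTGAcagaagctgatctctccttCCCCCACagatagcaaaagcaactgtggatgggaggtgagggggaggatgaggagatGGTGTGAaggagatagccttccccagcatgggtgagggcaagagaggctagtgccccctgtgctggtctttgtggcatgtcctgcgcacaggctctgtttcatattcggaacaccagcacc
Eomes +1.0 kb: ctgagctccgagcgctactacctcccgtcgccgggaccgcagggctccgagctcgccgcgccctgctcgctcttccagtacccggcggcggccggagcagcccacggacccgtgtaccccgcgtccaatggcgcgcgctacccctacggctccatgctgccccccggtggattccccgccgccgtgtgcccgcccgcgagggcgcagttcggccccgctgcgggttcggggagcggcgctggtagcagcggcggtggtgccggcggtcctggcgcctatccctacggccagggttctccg
Eomes +11.5 kb: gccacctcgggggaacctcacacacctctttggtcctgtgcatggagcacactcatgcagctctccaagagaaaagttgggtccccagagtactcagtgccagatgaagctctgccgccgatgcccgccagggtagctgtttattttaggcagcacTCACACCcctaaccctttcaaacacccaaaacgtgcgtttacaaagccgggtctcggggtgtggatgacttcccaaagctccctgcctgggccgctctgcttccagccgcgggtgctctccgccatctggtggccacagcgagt

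Between the BALB/c subsets, chromatin at Tbx21 was less accessible in iNKT2 cells along nearly the whole window. A region was called at an edgeR adjusted p under 0.01 and a change of at least 4-fold. By this rule 21 of the 36 Tbx21 regions (58.3%) were lower in iNKT2 cells and 0 were higher, where 6.36% of all regions were called lower and 15.5% higher. By adjusted p alone, 34 of 36 were lower, against 23.4% of all regions. The median log2 change was -2.50 over the Tbx21 regions and 0.06 over all regions. The exceptions were the downstream regions at +32.3 kb (log2 change -0.09 ± 0.34, SE) and +42.5 kb (-0.67 ± 0.33).

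**Figure D1:**
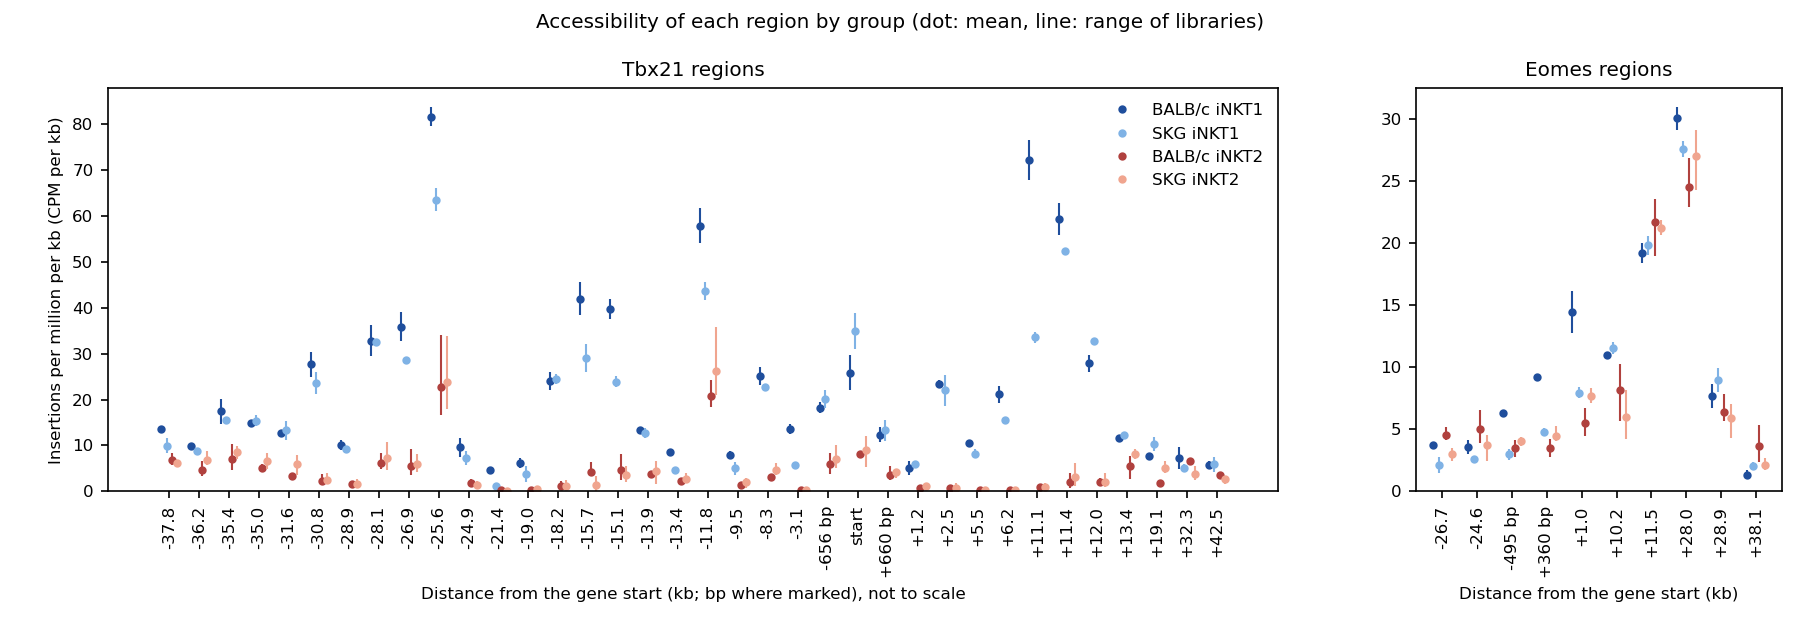
Accessibility of the 36 Tbx21 and 10 Eomes regions in the 4 groups, in CPM per kb of region, with the mean as a dot and the range of the 2 or 3 libraries as a line. At Tbx21 the blue iNKT1 dots lie above the red iNKT2 dots at nearly every position, most widely at -25.6, +11.1 and +11.4 kb, while at Eomes the highest dots per kb are those of the Golga4 start.

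The intron region at +11.1 kb (chr11:97104107-97104434) held 22.2 and 25.1 CPM in BALB/c iNKT1 and 0.502, 0.106 and 0.247 CPM in BALB/c iNKT2 cells. The groups were far apart, with mean levels 83.0-fold higher in iNKT1 and a log2 change of -6.38 (edgeR, SE 0.36, adjusted p 6.4e-09). All 26 insertions counted in the 3 BALB/c iNKT2 libraries together compare with 1313 in the 2 BALB/c iNKT1 libraries. Another intron region, at +6.2 kb, held 7.97 and 9.43 CPM in BALB/c iNKT1 and 0.251, 0 and 0.124 CPM in BALB/c iNKT2, a log2 change of -6.14 ± 0.52 (SE). Upstream of the gene, the region at -3.1 kb held 8.81 and 7.58 CPM in BALB/c iNKT1, and in BALB/c iNKT2 it held 0.470 CPM in replicate 1 and 0 in the other libraries. The regions at +6.2, -3.1, -15.7, -21.4, -25.6 and -36.2 kb, and those by the start of Eomes other than +360 bp and +1.0 kb, were chosen for naming after their values were seen.

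The start of Tbx21 itself changed by less than the call limit. Its region (chr11:97115173-97115514) held 10.2 and 7.54 CPM in BALB/c iNKT1 and 2.92, 2.88 and 2.64 CPM in BALB/c iNKT2. The libraries did not overlap, the level was 3.14-fold higher in iNKT1, and the log2 change was -1.65 (edgeR, SE 0.27, adjusted p 7.0e-05). The region at -11.8 kb (chr11:97126834-97127490), 657 bp wide and highest in mean CPM but not per kb, held 40.6 and 35.5 CPM in BALB/c iNKT1 and 15.9, 12.1 and 13.1 CPM in BALB/c iNKT2, a log2 change of -1.47 (edgeR, SE 0.20, adjusted p 1.4e-05). All libraries of BALB/c iNKT2 lay below those of BALB/c iNKT1 there too. Whether the start and the intron regions differed from each other in their change was not tested.

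In SKG mice the same question gave calls at the same places. At Tbx21, 18 of 36 regions (50%) were lower in SKG iNKT2 than in SKG iNKT1 and 0 were higher, where 6.96% of all regions were called lower and 10.2% higher. By adjusted p alone 26 of 36 were lower, against 17.6% of all regions, and the median log2 change was -2.18 against 0.14 over all regions. The 18 calls were all among the 21 of BALB/c (85.7% of these), and the libraries of the 2 comparisons are separate. The other 3 BALB/c calls were the regions at -21.4, -9.5 and +19.1 kb.

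The intron region at +11.1 kb held 10.6 and 11.4 CPM in SKG iNKT1 and 0.565, 0.184 and 0.202 CPM in SKG iNKT2. It fell by 4.92 ± 0.38 on the log2 scale (SE, edgeR; adjusted p 8.2e-08), with a mean 34.7-fold higher in iNKT1. The start held 13.3 and 10.6 CPM in SKG iNKT1 and 4.16, 1.79 and 3.24 CPM in SKG iNKT2, a log2 change of -1.94 (edgeR, SE 0.27, adjusted p 2.8e-05). This start value lay just short of the call limit, and it was past 4-fold with DESeq2 and without SKG iNKT2 replicate 1 (-2.29) or SKG iNKT1 replicate 2 (-2.10). The region at -11.8 kb held 29.9 and 27.3 CPM in SKG iNKT1 and 23.5, 14.5 and 13.8 CPM in SKG iNKT2, a log2 change of -0.72 (edgeR, SE 0.20, adjusted p 8.6e-03).

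**Figure D2:**
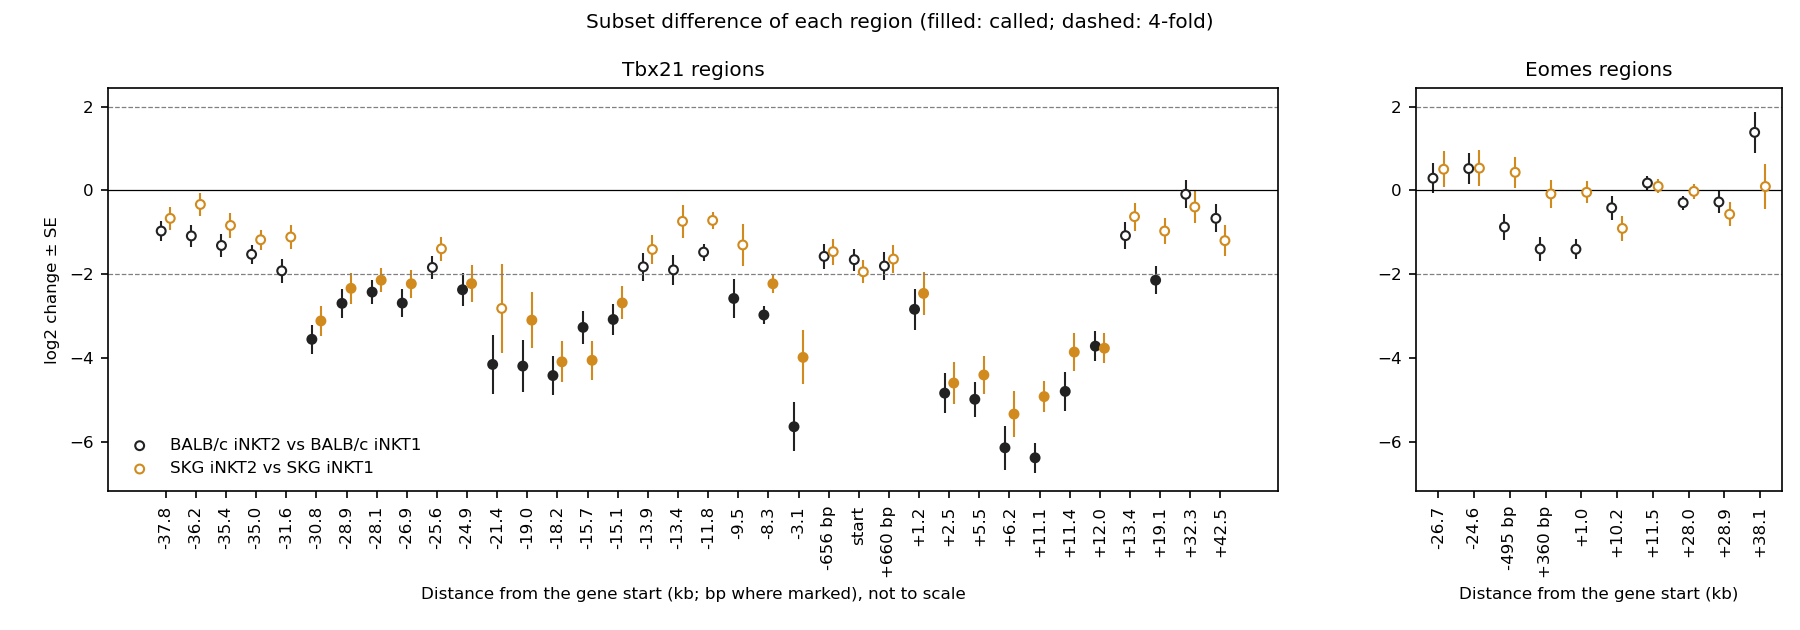
Log2 change of each region from iNKT1 to iNKT2 in BALB/c (black) and SKG (orange), with its standard error, against position. Filled points were called, dashed lines mark 4-fold, and the lowest Tbx21 points of both genotypes are at +6.2 and +11.1 kb, while no Eomes point is filled.

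The calls were spread over gene body and upstream DNA. Of 9 regions in the body of Tbx21 beyond the start, 7 were called lower in iNKT2 in each genotype, with a median log2 change of -4.80 in BALB/c and -3.86 in SKG. In the intergenic stretch between Tbx21 and Tbkbp1, 7 of 11 regions were called in BALB/c and 6 in SKG (medians -2.97 and -2.23). In Tbkbp1, which encodes an adaptor of the kinase TBK1, 6 of 11 were called in BALB/c and 5 in SKG (medians -2.37 and -2.14). Among these the intron region at -25.6 kb was the most accessible per kb of the window in BALB/c iNKT1, at 81.6 CPM per kb, a level above that of 95.4% of all regions. It held 36.4 and 38.2 CPM in BALB/c iNKT1 and 15.6, 7.57 and 8.08 CPM in BALB/c iNKT2, with no overlap between the groups. The start of Tbkbp1, at -36.2 kb, changed least of its regions, by -1.09 ± 0.27 in BALB/c and -0.34 ± 0.28 in SKG (log2, SE).

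Summed over all 36 regions, Tbx21 held 368 and 337 CPM in BALB/c iNKT1, 293 and 288 in SKG iNKT1, 92.3, 57.2 and 59.4 in BALB/c iNKT2, and 109, 67.0 and 63.5 in SKG iNKT2. The order of the means was BALB/c iNKT1 (353 ± 22, SD), SKG iNKT1 (290 ± 3.79), SKG iNKT2 (79.9 ± 25.4) and BALB/c iNKT2 (69.6 ± 19.7), and the 2 iNKT2 groups overlapped. The same sums were made for 18111 protein-coding genes and called at an edgeR adjusted p under 0.01 and 2-fold. The Tbx21 sum fell by 2.34 ± 0.25 in BALB/c iNKT2 (log2, SE; edgeR adjusted p 3.0e-05) and by 1.86 ± 0.24 in SKG iNKT2 (edgeR adjusted p 2.4e-04), where 4.61% and 3.84% of genes were called lower and 9.98% and 5.5% higher. The median change of all genes was -0.25 and -0.11.

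**Figure D3:**
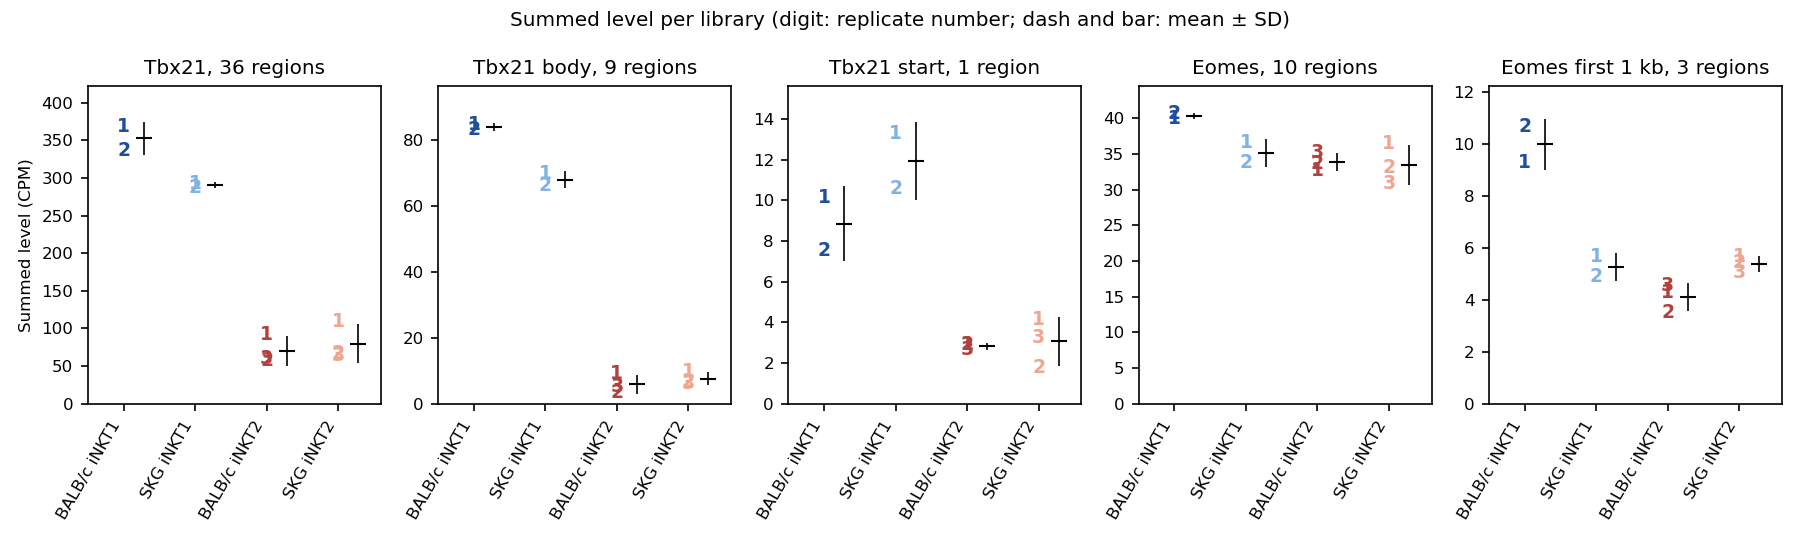
Summed level in each library, in CPM, for all Tbx21 regions, the Tbx21 body, the Tbx21 start, all Eomes regions and the Eomes regions of the first 1 kb, with the replicate number as the point and the mean ± SD beside it. The Tbx21 sums separate iNKT1 from iNKT2, the Eomes sum of 10 regions lies at 30.8 to 40.6 CPM in every library, and the Eomes start sum is highest in BALB/c iNKT1.

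Within iNKT2, library number 1 of each genotype stood above the others at Tbx21. It was the highest of its group at 30 of 36 Tbx21 regions in BALB/c and at 29 of 36 in SKG, against 39.3% and 44.3% of all regions. At Eomes it was the highest at 3 and at 8 of 10 regions. The 4 iNKT1 markers did not all follow this order. Il2rb held 193 CPM against 170 and 172 in BALB/c iNKT2 and 264 against 187 and 200 in SKG iNKT2, and Cxcr3 held 36.9 against 30.9 and 29.9 and 39.5 against 36.05 and 38.2. Ifng was highest in the BALB/c library (177 against 168 and 159 CPM) and lowest in the SKG library (174 against 175 and 188). Klrb1c went the other way in both, at 280 against 406 and 399 CPM and at 382 against 485 and 477. The sum of these 4 was lowest in library 1, at 687 against 775 and 760 CPM in BALB/c iNKT2 and 860 against 883 and 903 in SKG iNKT2. The sum of the iNKT2 markers was highest there, at 1162 against 982 and 999 CPM and 1508 against 1105 and 1148 CPM. Of these, Zbtb16, Il4 and Ccr7 were highest in library 1 of both genotypes and Il17rb in neither. The part of other cells in these libraries was not tested. Without both libraries, the Tbx21 sum changed between subsets by -2.57 in BALB/c and -2.16 in SKG (log2), and it was called in each.

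Between genotypes, the question was whether the SKG mutation left the chromatin of Tbx21 altered within a subset. In iNKT1 cells 0 Tbx21 regions were called in either direction, where 0.732% of all regions were lower and 0.281% higher in SKG iNKT1. The sum was -0.28 ± 0.27 (log2, SE), where 0.342% of genes were called lower and 0.188% higher. Of the 36 regions 25 had a lower and 11 a higher level in SKG, with a median log2 difference of -0.18 against -0.03 over all regions. At an unadjusted p under 0.05 there were 4 of 36 regions, where 17.1% of all regions passed it, and all were lower in SKG, at +11.1, -3.1, -13.4 and -21.4 kb. The leading one, the intron region at +11.1 kb, had 22.2 and 25.1 CPM in BALB/c iNKT1 and 10.6 and 11.4 CPM in SKG iNKT1. The libraries did not overlap and the mean was 2.15-fold lower in SKG iNKT1 (log2 difference -1.10 ± 0.30, SE; edgeR adjusted p 4.8e-02), which missed both limits. The region at -21.4 kb, in the UTR of Tbkbp1, held 1.19 and 1.59 CPM in BALB/c iNKT1 and 0.321 CPM in each SKG iNKT1 library, and it was called when only the iNKT1 groups were fitted (log2 difference -2.06, edgeR adjusted p 8.3e-03).

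In iNKT2 cells 0 Tbx21 regions were called as well, where 4.73% of all regions were lower and 0.252% higher in SKG iNKT2. The sum differed by 0.20 ± 0.22 (log2, SE), where 3.79% of genes were called lower and 0.182% higher. The median difference of all genes was 0.17, so the Tbx21 sum lay close to the shift of genes in general. Of the regions 29 had a higher and 7 a lower fitted level in SKG. Within each of the 3 same-numbered pairs of libraries the Tbx21 sum was higher in SKG, at 109 against 92.3, 67.0 against 57.2 and 63.5 against 59.4 CPM, with 20 or 21 of the 36 regions higher. Pairing by number is an assumption, since only libraries numbered 1 stood out in their correlation across genotypes. With the replicate number as a block, 28 regions were higher and 8 lower. The sum then differed by 0.19 ± 0.06 (log2, SE; edgeR adjusted p 5.0e-03), past the p limit but under 2-fold. In that fit 43.9% of all genes were higher in SKG and 11.7% lower by the p limit alone, and 0.215% were higher and 4.81% lower by both limits. Leaving out both libraries numbered 1 gave 23 higher and 13 lower. Leaving out a single library gave 13 higher and 23 lower without SKG iNKT2 replicate 1, where the sum differed by -0.09 (log2). Dropping BALB/c iNKT2 replicate 2 gave 18 and 18, and dropping replicate 3 of that group gave 22 and 14. By adjusted p alone and with no block 1 region passed, where 4.02% of all regions were higher and 10.1% lower. It was the intergenic region at +19.1 kb, past the end of the gene (chr11:97096130-97096429). It held 0.439, 0.661 and 0.453 CPM in BALB/c iNKT2 and 1.96, 1.42 and 1.21 CPM in SKG iNKT2. The libraries did not overlap, and the level was 2.96-fold higher in SKG (log2 difference 1.57 ± 0.31, SE; edgeR adjusted p 1.9e-03), under the 4-fold limit. In iNKT1 the same region held 2.30 and 2.38 CPM in BALB/c and 3.53 and 2.63 CPM in SKG.

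Beside +19.1 kb, another 5 Tbx21 regions had an unadjusted p under 0.05 between the iNKT2 groups, where 37.5% of all regions did, with -8.3, -31.6 and -36.2 kb higher in SKG and -15.7 and +32.3 kb lower. The region at -15.7 kb, the one with the T-box strings, held 2.45, 1.24 and 1.24 CPM in BALB/c iNKT2 and 1.25, 0.321 and 0.0674 CPM in SKG iNKT2, and the groups overlapped. The difference between the genotype effects of the subsets, an interaction, gave 0 calls at Tbx21, where 0.189% of all regions were called higher and 0.341% lower. At an unadjusted p under 0.05, which 19.8% of all regions passed, there were 5, at +19.1, +11.1, -8.3, -11.8 and -13.4 kb, all with a higher SKG to BALB/c ratio in iNKT2 than in iNKT1 and all with an edgeR adjusted p of 0.16 or more.

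**Figure D4:**
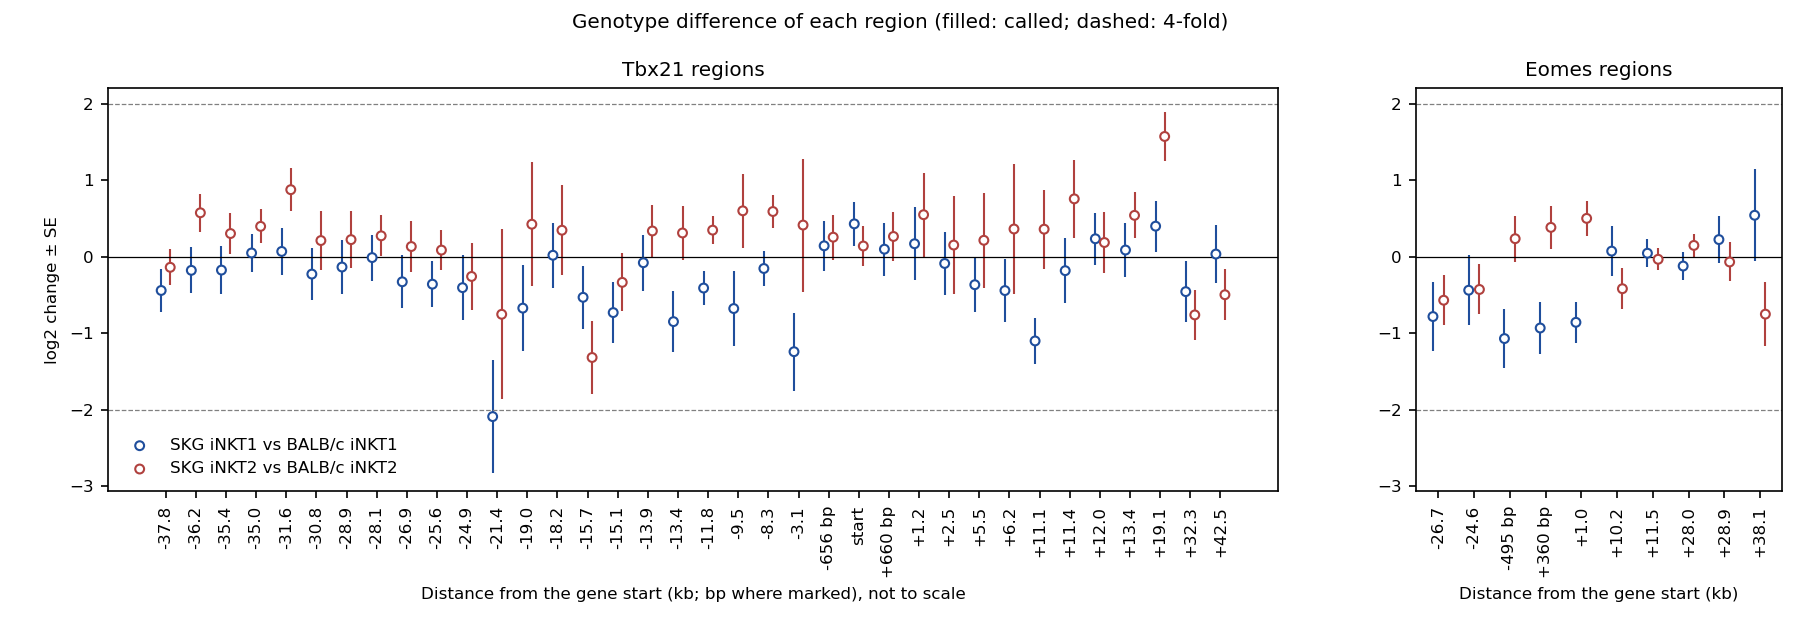
Log2 difference between SKG and BALB/c for each region, in iNKT1 (blue) and in iNKT2 (red), with its standard error. No point is filled, so none was called, and the 3 Eomes regions nearest the start lie below 0 in iNKT1 and above 0 in iNKT2.

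At Eomes no region was called in any comparison. The 10 regions summed to 40.0 and 40.6 CPM in BALB/c iNKT1, 36.6 and 33.7 in SKG iNKT1, 32.7, 33.6 and 35.2 in BALB/c iNKT2, and 36.4, 33.1 and 30.8 in SKG iNKT2. The groups other than BALB/c iNKT1 overlapped. The sum changed by -0.25 ± 0.10 (log2, SE; edgeR adjusted p 5.0e-02) between the BALB/c subsets and by -0.07 ± 0.10 between the SKG subsets, close to the medians of all genes, and with library totals in place of TMM scaling these values were 0.03 and 0.12. At an unadjusted p under 0.05 there were 4 Eomes regions between the BALB/c subsets, 1 between the SKG subsets, 3 between the iNKT1 groups and 1 between the iNKT2 groups, where 64.9%, 55.6%, 17.1% and 37.5% of all regions passed. The 4 were at -495 bp, +360 bp and +1.0 kb, lower in BALB/c iNKT2, and at +38.1 kb in Golga4, higher there, and the 1 between the SKG subsets was at +10.2 kb.

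The regions by the start of Eomes carried this difference. No region overlapped the annotated start, and the nearest, at +360 bp in the 5′ UTR (chr9:118478423-118478722), held 2.75 and 2.78 CPM in BALB/c iNKT1 and 1.25, 1.03 and 0.825 CPM in BALB/c iNKT2. The libraries did not overlap, and the log2 change was -1.40 (edgeR, SE 0.29, adjusted p 5.7e-04), past the p limit but under 4-fold. The coding exon region at +1.0 kb (chr9:118479047-118479414) held 4.69 and 5.95 CPM in BALB/c iNKT1 and 1.94, 1.64 and 2.47 CPM in BALB/c iNKT2, a log2 change of -1.40 (edgeR, SE 0.24, adjusted p 1.0e-04). In SKG these regions held nearly the same level in both subsets. At +1.0 kb, SKG iNKT1 held 3.08 and 2.76 CPM and SKG iNKT2 held 2.76, 3.08 and 2.63 CPM, a log2 change of -0.05 ± 0.26 (SE). At +360 bp, SKG iNKT1 held 1.54 and 1.35 CPM and SKG iNKT2 held 1.57, 1.24 and 1.21 CPM.

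The 3 regions nearest the Eomes start were lower in SKG iNKT1 than in BALB/c iNKT1 by 0.86 to 1.07 on the log2 scale, with edgeR adjusted p of 0.087 to 0.14, and in iNKT2 they differed the other way by 0.23 to 0.50. Their sum was 9.29 and 10.7 CPM in BALB/c iNKT1, 5.65 and 4.88 in SKG iNKT1, 4.27, 3.49 and 4.53 in BALB/c iNKT2, and 5.65, 5.42 and 5.06 in SKG iNKT2. BALB/c iNKT1 stood above the other groups, which spanned 3.49 to 5.65 CPM. The interaction at these regions was 1.30 to 1.36 on the log2 scale, with the lowest edgeR adjusted p, 4.1e-02, at +1.0 kb, past neither limit of the call rule. By contrast, the downstream region at +11.5 kb (chr9:118489449-118490003) held 11.1 and 10.2 CPM in BALB/c iNKT1, 11.4 and 10.6 in SKG iNKT1, 10.5, 12.6 and 13.1 in BALB/c iNKT2 and 12.1, 11.7 and 11.5 in SKG iNKT2. The groups differed by at most 0.17 on the log2 scale there. At +10.2 kb the level was 4.18 and 3.85 CPM in SKG iNKT1 and 2.85, 1.47 and 1.96 CPM in SKG iNKT2, a log2 change of -0.91 (edgeR, SE 0.31, adjusted p 2.2e-02).

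Set on a scale per kb of region, the start of Tbx21 was more accessible than the region nearest the start of Eomes in every group. In BALB/c iNKT1 the levels were 25.9 and 9.21 CPM per kb, above those of 78.4% and 54.4% of all regions. In BALB/c iNKT2 they were 8.23 and 3.46 CPM per kb, above 48.4% and 14.9% of all regions. The region at the start of Golga4 was the most accessible of the Eomes window per kb, at 24.5 to 30.0 CPM per kb over the 4 groups.

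The genes of the pathway, chosen with results of these data known, were described by their summed regions. Among 9 genes for signals and factors upstream of T-bet, 4 were called lower in BALB/c iNKT2 and 0 higher, where 4.61% of all genes were called lower and 9.98% higher. They were Il12rb2 (a chain of the interleukin-12 receptor; log2 change -1.93 ± 0.13, SE), Stat4 (which carries the interleukin-12 signal; -1.79 ± 0.09), Ifngr1 (a chain of the interferon-gamma receptor; -1.42 ± 0.09) and Runx3 (a partner of T-bet at Ifng; -1.33 ± 0.13). The same 4 were called lower in SKG iNKT2, at -2.19, -1.45, -1.08 and -1.14, where 3.84% of all genes were called lower and 5.5% higher. Ifngr2, the other chain of the interferon-gamma receptor, was called higher in SKG iNKT2 (1.11 ± 0.11), with 164 ± 19.4 CPM in SKG iNKT1 (SD, n = 2) and 354 ± 29.6 in SKG iNKT2 (SD, n = 3), a call that was lost without SKG iNKT1 replicate 1. Il12rb1, Il27ra, Hlx and Il15ra were not called between subsets.

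Among 16 target and effector genes, 14 were called lower in BALB/c iNKT2 (4.61% of all genes) and 11 in SKG iNKT2 (3.84% of all genes), with 0 higher. The deepest changes were at Gzma (granzyme A), with 144 ± 3.93 CPM in BALB/c iNKT1 and 11.9 ± 1.24 in BALB/c iNKT2 (log2 change -3.60 ± 0.20, SE), and at Ccl5, a chemokine gene (-3.30 ± 0.29). Prf1, which encodes perforin, changed by -2.86 ± 0.14, Cxcr3, a chemokine receptor gene, by -1.87 ± 0.10 and Ifng by -1.16 ± 0.07. Nkg7 (-0.91 ± 0.15) and S1pr5 (-0.59 ± 0.07) were not called in either genotype. Il18r1, Il18rap and Bhlhe40 were called in BALB/c alone, though their interactions had edgeR adjusted p of 0.28, 0.21 and 0.075. Windows of neighbouring genes share regions, so the genes counted are not all independent. Il18r1 and Il18rap held nearly the same levels in BALB/c iNKT2, at 245, 203 and 184 CPM and at 242, 203 and 182 CPM. Il2rb encodes CD122, which the sort gate used, so its change (-1.66 ± 0.13) is not independent of the gate. The counts for these genes depended on scaling: with library totals they were 9 and 7, and with quantile normalization 8 and 7. For the upstream genes in SKG both scalings gave 2 lower.

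**Figure D5:**
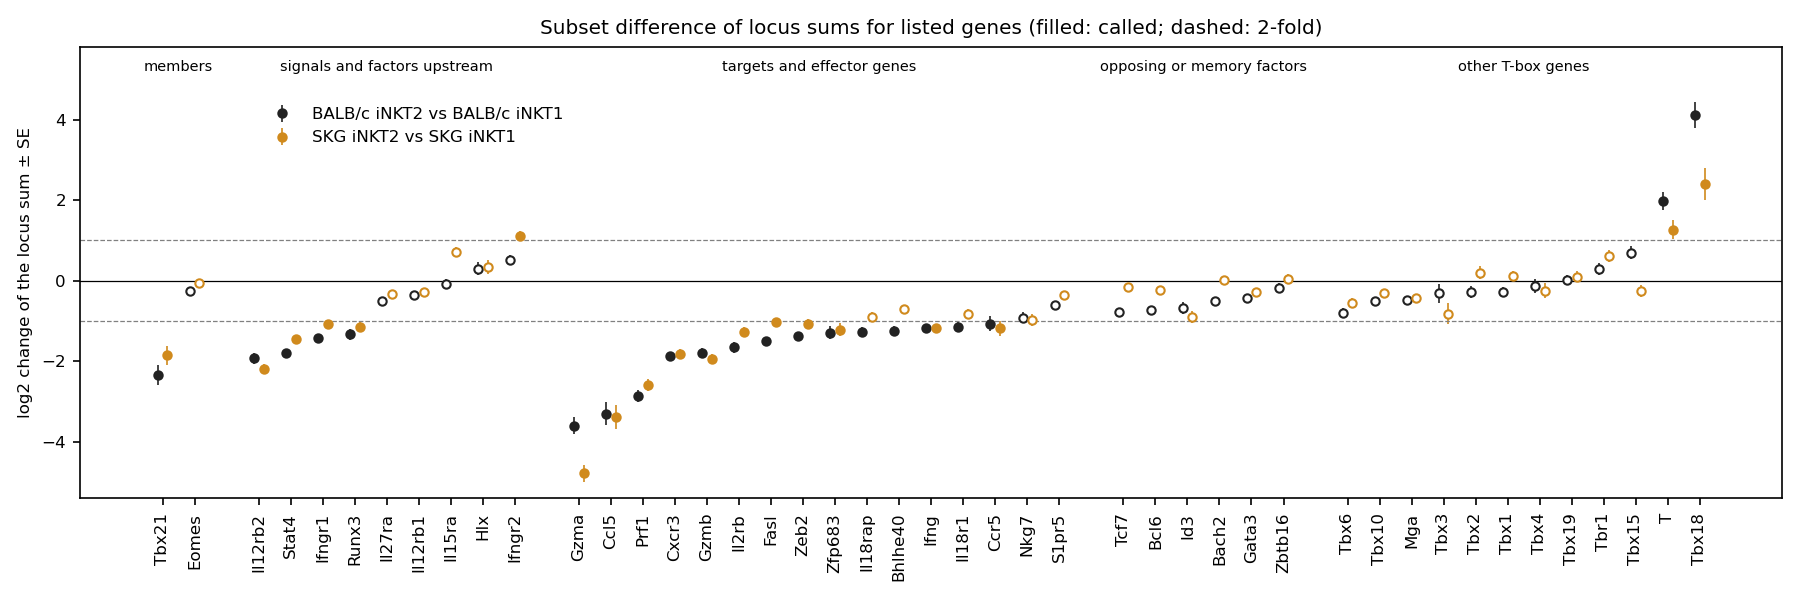
Log2 change of the summed regions of each listed gene from iNKT1 to iNKT2, with its standard error, in BALB/c (black) and SKG (orange). Filled points were called and dashed lines mark 2-fold. Tbx21 lies among the target and effector genes, which are all below 0, Eomes lies near 0, and T and Tbx18 lie above 0.

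Opposing or memory factors gave 0 calls of 6 between subsets in each genotype, beside the same shares of all genes. Tcf7, which encodes a factor of early and memory-like T cells, was at -0.79 ± 0.11 in BALB/c and -0.15 ± 0.11 in SKG, and Gata3, the factor of the type 2 programme, at -0.42 ± 0.10 and -0.27 ± 0.10 (log2, SE). Of 15 other T-box genes 12 had a region in their windows, and 2 were called higher in iNKT2 of both genotypes, where 9.98% of all genes were called higher in BALB/c and 5.5% in SKG, so that a count of this size is close to the background in BALB/c. Tbx18, a developmental factor, had 0.437 ± 0.0574 CPM in BALB/c iNKT1 and 7.71 ± 1.92 in BALB/c iNKT2, and T, which encodes brachyury, had 2.64 ± 0.441 and 10.4 ± 2.21 (SD). In SKG these 2 calls were lost with quantile normalization and without either SKG iNKT1 library. Between genotypes, 0 genes of the upstream, target and opposing lists were called with edgeR. Of all genes, 0.342% were called lower and 0.188% higher in SKG iNKT1, and 3.79% and 0.182% in SKG iNKT2. By adjusted p alone, Gzma was lower in SKG iNKT2 (-0.95). Il15ra (0.65), Bcl6, Tcf7, Bhlhe40, Ifngr1, Ifngr2, Il27ra and S1pr5 were higher, where the median of all genes was 0.17. The share of all genes passing this p limit without a block was not counted. With the replicate block 43.9% of all genes were higher by it, so these names cannot be set apart from genes in general. The 1 call among the T-box genes was Tbx18, lower in SKG iNKT2 (-1.79 ± 0.23), which was lost with quantile normalization.

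Markers of the subsets and of other cells were set beside these values. The 4 iNKT1 markers summed to 1547 to 1582 CPM in the iNKT1 libraries and to 687 to 903 CPM in the iNKT2 libraries. In each genotype 3 were called lower and Klrb1c was not called. Among the 3 is Il2rb, which encodes CD122 of the sort gate and so is not independent of it. Of the 4 iNKT2 markers (Zbtb16, Il4, Il17rb and Ccr7) 0 were called, and their sum overlapped between the subsets, at 1057 to 1145 CPM in iNKT1 and 982 to 1508 CPM in iNKT2. Zbtb16 made up 516 to 583 CPM of it in group means. Il17rb was higher in iNKT2 past the p limit but under 2-fold (log2 change 0.49 ± 0.07 in BALB/c and 0.59 ± 0.07 in SKG, SE). Ccr7 was at 0.46 ± 0.18 and 0.97 ± 0.18, Il4 at -0.50 ± 0.23 and -0.33 ± 0.23, and Zbtb16 at -0.17 ± 0.13 and 0.04 ± 0.13. Of 3 iNKT17 markers (Il23r, Ccr6 and Il17a), Il17a was called higher in iNKT2 of each genotype, and their sum was 234 to 248 CPM in iNKT1 and 248 to 356 CPM in iNKT2. The 3 NK cell markers (Ncr1, Klra8 and Klre1) summed to 429 to 503 CPM in iNKT1, nearly all of it at Klre1, and to 57.3 to 76.3 CPM in iNKT2. They moved with Tbx21, with 3 called lower in BALB/c iNKT2 and 2 in SKG iNKT2, where 4.61% and 3.84% of all genes were called lower. Ncr1 held at most 4.75 CPM in a group mean over 3 regions, and Klra8 at most 1.03 in 1 region. Levels this low limit what these genes can show about NK cells. B cell markers (Ms4a1 and Pax5) gave 0 calls, at 95.1 to 108 CPM in iNKT1 and 96.4 to 117 CPM in iNKT2. Of the myeloid markers (Csf1r, Lyz2 and Spi1), Csf1r and Lyz2 were called higher in BALB/c iNKT2 and Lyz2 in SKG iNKT2, at group means under 4 CPM, in a sum of 245 to 261 CPM in iNKT1 and 174 to 214 CPM in iNKT2. Of the markers of double-positive thymocytes (Rag1, Cd8b1 and Ptcra), Cd8b1 was called lower in SKG iNKT2 (log2 change -1.57), with 7.97 and 19.4 CPM in SKG iNKT1 against 3.51 to 5.35 CPM in SKG iNKT2, a call lost without SKG iNKT1 replicate 2 (-0.79) or SKG iNKT2 replicate 3 (-1.43). The sum of these 3 was 223 to 244 CPM in iNKT1 and 216 to 267 CPM in iNKT2. The part of such cells in the Tbx21 and Eomes values was not tested.

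The genes whose start regions were most like that of Tbx21 over the 10 libraries were Lyzl4 (Pearson's r 0.985), Lpar6 (0.984), Orai3 (0.979), Ccdc136 (0.979) and Shisa5 (0.979), among 9647 start regions. At Orai3 the group means were 16.3 CPM in BALB/c iNKT1, 18.5 in SKG iNKT1, 6.73 in BALB/c iNKT2 and 6.92 in SKG iNKT2. This is the order of the Tbx21 start, at 8.85, 11.9, 2.81 and 3.06 CPM, highest in SKG iNKT1. For the Eomes region at +360 bp they were Kcnk7 (r 0.958), Mpdu1 (0.953), H2-Q4 (0.942), Ccrl2 (0.936) and Rasl12 (0.934), among 9648. Like Eomes, Ccrl2 was highest in BALB/c iNKT1, at 29.0 CPM against 15.8, 11.4 and 13.3 CPM in SKG iNKT1, BALB/c iNKT2 and SKG iNKT2. These values are a description, since libraries of a group share its level and each r rests largely on the differences between 4 groups.

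In the central 300 bases of the 36 Tbx21 regions, the Egr string (the binding letters of the Egr family, which T cell receptor signals induce) occurred in 20 regions (55.6%), where 28.7% of all regions held it. The ETS string also occurred in 20 (55.6%, against 45.3% of all regions), the NFAT string in 11 (30.6% against 23.4%), the Runx string in 9 (25% against 30.3%), the E protein string in 9 (25% against 17.4%) and the Tcf string in 4 (11.1% against 21.5%). The Egr string was in 12 of the 21 regions called lower in BALB/c iNKT2 and in 8 of the other 15. In the printed stretch at +11.1 kb its matches begin at bases 148 and 210, and the first overlaps a Runx match at base 153. The T-box string was in 1 Tbx21 region, with matches at bases 97 and 180 at -15.7 kb, the first of which overlaps an Egr match at base 94, and in 1 of 10 Eomes regions, at base 157 at +11.5 kb, where 5.49% of all regions held it. The Eomes regions held the ETS string in 5, the Egr string in 2, the Runx and NFAT strings in 1 each and the others in 0. A match is a description of the letters and not of binding.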

How the data were processed

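ATAC-seq of 10 libraries was analysed. As the methods state, the authors aligned reads to mm10 with Bowtie (1.0 in the submitters' processing notes), retried unmapped reads after trimming with Trim Galore, removed duplicate (Picard) and mitochondrial reads, called MACS2 summits per replicate, merged them into regions without chromosome Y and blacklisted DNA, and counted insertions. The deposited values are whole numbers per region and library with unequal totals, which were read as raw counts of transposase insertions although their table is named as normalized. Region widths of 300 to 7709 bp affect levels, so regions are compared per kb, except in the rule for the highest mean, which used CPM not divided by width. Totals cover the regions, not the full libraries.

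From these, edgeR 4.0.16 (R 4.3.3) fitted 1 mean per group over all libraries with TMM factors. Quasi-likelihood F tests were adjusted by Benjamini-Hochberg over all 94823 regions. SE is the log2 change divided by the root of F. Sums per gene used the same fit. Genes and features came from GENCODE M21 and bases from GRCm38. Fits were tested on simulated data. Alternatives were library totals, DESeq2 1.42.0, voom (limma 3.58.1) with and without quantile normalization, a filter at a mean of 36.2 insertions, adjusted p under 0.05 with 2-fold, only the 2 groups compared, the replicate number as a block and leaving out each library. Leaving out both iNKT2 libraries numbered 1 was added after seeing the data.

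Regions named by rule were the start region (or the nearest), the called region of smallest adjusted p in each direction and contrast (or the smallest p), the region of highest mean and up to 6 called in a genotype contrast. Genes of like pattern were the 5 of highest Pearson's r over log2(CPM + 1) of start regions. The members and lists were chosen with earlier results of these data known. Some listed genes are not reported here. Labels do not say whether libraries came from separate mice, so p-values measure the spread between these samples, which may be technical. Replicate numbers come from the labels. Deviations from group means of same-numbered iNKT2 libraries correlated across regions at 0.517, 0.181 and 0.224. BALB/c replicate 2 with SKG replicate 3 gave 0.201, and BALB/c replicate 3 with SKG replicate 2 gave 0.308. Only number 1 thus stood out, and the block took the numbers as pairs by assumption. In iNKT1 the value was -0.00937.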

Additional observations from a re-analysis of the deposited data

Results flagged for a closer look

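The Eomes region at +1.0 kb drew attention because the genotypes differed in opposite directions in the 2 subsets, with no overlap between the libraries in either. In iNKT1 both SKG libraries (3.08 and 2.76 CPM) lay below both BALB/c libraries (4.69 and 5.95 CPM), and in iNKT2 the 3 SKG libraries (2.63 to 3.08 CPM) lay above the 3 BALB/c libraries (1.64 to 2.47 CPM). The test of the difference itself, the interaction, gave 1.36 ± 0.35 on the log2 scale (SE; edgeR adjusted p 4.1e-02 over all regions), which missed the adjusted p limit of 0.01 and the 4-fold limit. Groups held 2 or 3 libraries, too few for a search for outlying samples within a group.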

How the results depend on the processing

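The direction of the Tbx21 sum between subsets and its call held under every alternative run, and no result reversed a call. Under adjusted p under 0.05 and 2-fold, Tbx21 had 33 regions lower in BALB/c iNKT2, 28 lower in SKG iNKT2, 1 lower in SKG iNKT1 and 1 higher in SKG iNKT2 than in BALB/c, while Eomes had 1 higher and 2 lower in BALB/c iNKT2 and 1 interaction higher. Shares of all regions were not counted under this rule or with a library left out. Those counts therefore have no background beside them and show only how the main counts move. With voom and quantile normalization, 1 Eomes region was called lower in BALB/c iNKT2 (+360 bp, log2 change -2.13, adjusted p 4.3e-05) and 1 Tbx21 region higher in SKG iNKT2 (+19.1 kb, 2.81, adjusted p 7.7e-04). With only the 2 groups compared, 1 Tbx21 region was lower in SKG iNKT1 (-21.4 kb). Leaving out each library in turn, Tbx21 had 19 to 24 regions lower in BALB/c iNKT2 and 17 to 19 in SKG iNKT2. Between the iNKT2 groups it had 0 to 1 higher and 0 to 1 lower, and the interaction 0 to 1 higher. The calls were the -3.1 kb region without BALB/c iNKT2 replicate 1 (against BALB/c libraries that are then all at 0, so that no fold is given) and the -15.7 kb region without SKG iNKT2 replicate 1 (-2.90). Without both iNKT2 libraries numbered 1, chosen after seeing the data, there was 1 higher, 1 lower and 1 interaction, at the same places. In fits with 1 library left in a group, it was taken to vary as other groups do. The replicate block, an assumed pairing, changed no call. In it the Tbx21 sum differed by 0.19 between the iNKT2 groups, and its edgeR adjusted p went from 0.48 to 5.0e-03. Scaling to library totals moved the median change of all regions between the BALB/c subsets from 0.06 to 0.34, and quantile normalization to -0.0023. The target and effector genes called lower went from 14 to 9 and 8 in BALB/c and from 11 to 7 and 7 in SKG under these scalings, and the cause was not tested. The other 508 values were counts close to the main count, though single regions could cross the limits, or sums on the same side of them. The Eomes sum between subsets changed sign with library totals without a call. The Tbx21 sum between the iNKT2 groups changed sign without SKG iNKT2 replicate 1, from 0.20 to -0.09 (log2), also without a call. For the Eomes sum between these groups, leaving out each library gave -0.08 to 0.04. A filter on low counts left 29 of the Tbx21 regions, of which 14 were called in each genotype, likewise with no share of all regions counted. At low levels, as at -21.4 kb, where SKG iNKT2 held 3 insertions in all, depth limits what can be seen.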
